A study of Mus musculus with 15 samples.

Results

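The genes described here are 6 receptors through which macrophages sense chemokines or chemerin, namely Ccr1 (ENSMUSG00000025804), Ccr2 (ENSMUSG00000049103), Ccr7 (ENSMUSG00000037944), Ccrl2 (ENSMUSG00000043953), Cx3cr1 (ENSMUSG00000052336) and Cxcr4 (ENSMUSG00000045382). They were taken by symbol from the 78317 Ensembl gene identifiers of the count table, with earlier results of these data known. All of them were measured in MH-S cells, a mouse alveolar macrophage line made by SV40 transformation, 24 h after treatment, in 5 groups of 3 libraries. M0 cells received medium only. These untreated cells are the control of the comparisons below, except for that between the microrods and for those stated between other groups. M1 cells received LPS at 1 µg/mL together with IFN-γ at 20 ng/mL, and M2 cells received IL-4 at 20 ng/mL. The remaining cells were incubated with rod-shaped microparticles at 0.1 mg/mL, built on a framework of calcium phosphate (CaP) or silica (SiO2) nanoparticles with the same polymer coat, labelled CaP-Alg-Prot/CMC(3DL) for the first material and SiO2-Alg-Prot/CMC(3DL) for the second. Each microrod library stands for its own particle preparation, but all groups come from 1 transformed line, and the wells are separate cultures of that line rather than separate animals.

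Chemokine receptors are G protein-coupled receptors of the cell surface. A bound chemokine activates inhibitory G proteins and, through phosphoinositide 3-kinase γ and Rac GTPases, turns actin polymerisation towards the source of the ligand. Receptor kinases, arrestins and RGS proteins then end the signal, and atypical receptors bind ligand without passing a signal on. In the lung, CCR2 is best known for bringing blood monocytes into inflamed tissue, CX3CR1 marks monocytes and many tissue macrophages, and CCR7 guides activated dendritic cells to lymph nodes.

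Levels are given as CPM, the counts of a gene relative to a library size scaled with the TMM method, and the total count of a library was between 8459643 and 68750050. A gene is said to rise or fall where edgeR's quasi-likelihood test gave an adjusted p below 0.05 and a log2 fold change above 0.5 in either direction, and otherwise its values are given without such a verb. Genes with 3 counts or fewer in every library of a group are taken to be at the floor there. The general macrophage markers Lyz2, Cd68, Csf1r, Ptprc and Spi1 were well above the floor in every group. The markers of resident alveolar macrophages were mixed. Siglecf was at the floor in M0, M1, CaP and SiO2 cells, Pparg in M1, and Mertk in M1 and SiO2 cells. Marco had between 0 and 0.325 CPM in M0 and 2.18 ± 0.681 CPM in M1. Itgax, of the same marker list, was above the floor in every group, from 1.62 ± 0.0417 CPM in M1 to 4.26 ± 0.795 CPM in CaP cells. Il1b, a marker of classical activation, had 1.06 ± 0.231 CPM in M0 and 411 ± 46.8 CPM in M1, and Arg1, a marker of the response to IL-4, had 11.0 ± 3.29 CPM in M0 and 1550 ± 171 CPM in M2. The label of the cell type rests here on the general markers. Of 14 markers of T, B, NK, dendritic, epithelial, fibroblast and endothelial cells and neutrophils, 9 to 11 were at the floor, depending on the group, and their summed level did not exceed 2.33 CPM in any library. In bulk RNA, fewer cells that carry a transcript and less transcript per cell cannot be told apart.

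Reference sequence is shown for a receptor whose transcript rose with LPS and IFN-γ and for one that did not pass the threshold. It is given as the 250 bases before the annotated start, on the minus strand of GRCm38.p6 and read 5′ to 3′. RefSeq held such windows for 5 of the 6 receptors. Capitals mark a match to the κB core GGANTTTCC, the site bound by NF-κB.
Ccrl2, chr9:111057519-111057768: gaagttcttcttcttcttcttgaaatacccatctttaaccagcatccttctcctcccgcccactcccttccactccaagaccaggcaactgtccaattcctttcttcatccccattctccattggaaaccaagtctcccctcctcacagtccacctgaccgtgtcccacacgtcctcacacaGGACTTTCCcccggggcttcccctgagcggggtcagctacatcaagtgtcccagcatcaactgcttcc
Ccr1, chr9:123968693-123968942: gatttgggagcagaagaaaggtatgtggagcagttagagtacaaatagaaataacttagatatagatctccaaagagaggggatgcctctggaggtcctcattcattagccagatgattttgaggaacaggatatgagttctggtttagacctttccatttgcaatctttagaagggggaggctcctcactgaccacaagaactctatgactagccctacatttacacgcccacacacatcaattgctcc
The Ccrl2 match begins at position -68 from the start, and the Ccr1 window held none on either strand. RefSeq gives 3 start windows for Ccrl2, of which the one printed lies farthest upstream, and the other two, which overlap each other, held no match. Among 32851 promoter windows of the same length, 350 (1.07%) held a match. On either strand, no window of the 5 receptors held the ISRE core, the GAS element TTCNNNGAA, the STAT6 site or the PU.1 core GAGGAAGT, which were present in 2.98%, 7.02%, 5.85% and 2.44% of all windows. The motifs were chosen after these sequences had been read, a match of letters is not evidence of binding, and GRCm38.p6 is an older build than the GRCm39 on which the reads were placed.

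Ccr1, a receptor for CCL3, CCL5, CCL7 and CCL9, was not called in any of the 5 comparisons. Its 3 M0 libraries held 14.9, 19.8 and 21.4 CPM, the M1 libraries 17.3, 18.6 and 17.1 CPM, and the M2 libraries 11.4, 16.3 and 9.24 CPM. CaP cells held 18.5, 23.6 and 20.5 CPM and SiO2 cells 22.8, 24.3 and 22.0 CPM. The M1 values lay inside the range of M0, CaP and M2 overlapped it from above and below, and all SiO2 values were above it. Against M0, the log2 fold change was -0.07 (SE 0.21) for M1, -0.63 (SE 0.21, edgeR adjusted p = 0.129) for M2, 0.17 (SE 0.18) for CaP and 0.31 (SE 0.19) for SiO2, and none passed the threshold. The M2 difference passed it once the library M2 replicate 2, the highest of its group, was left out (log2 fold change -0.85, adjusted p = 0.0171). The order of mean levels ran from SiO2 (23.0 ± 1.18 CPM, SD, n = 3) over CaP (20.9 ± 2.55), M0 (18.7 ± 3.41) and M1 (17.6 ± 0.813) to M2 (12.3 ± 3.62), and no neighbours in that order differed by edgeR's test. Farther apart in it, M2 was below CaP (log2 fold change of CaP over M2 0.79, SE 0.21, adjusted p = 0.0481) and below SiO2 (0.94, SE 0.21, adjusted p = 0.0215).

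Ccr2, the receptor for CCL2, CCL7 and CCL12, was highest in untreated cells. M0 libraries held 17.0, 11.7 and 16.3 CPM, M1 libraries 9.36, 6.62 and 7.47 CPM, and M2 libraries 7.22, 6.70 and 8.04 CPM. The lowest levels were those of microrod-treated cells, with 2.17, 5.32 and 3.23 CPM for CaP and 4.54, 4.61 and 3.64 CPM for SiO2. All 12 treated libraries were below all 3 untreated ones. Ccr2 fell with CaP microrods, 4.41-fold (log2 fold change -2.14, SE 0.32, 95% interval -2.85 to -1.43, edgeR adjusted p = 0.0276 in the model of M0 and microrod libraries). With SiO2 microrods the fitted level was 3.54-fold below M0 (-1.83, SE 0.32, 95% interval -2.53 to -1.12), which did not pass the threshold in that model (adjusted p = 0.112). It did pass in the model of all 15 libraries (adjusted p = 0.0186), without a filter on low counts (0.0287) and with DESeq2 (7.11e-05). It passed in none of the 6 omissions of 1 library (adjusted p between 0.123 and 0.49). In the other settings the adjusted p went up to 0.236. Both comparisons used the same M0 libraries.

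The Ccr2 call in CaP cells rested on single libraries to a degree that the fold change did not. It was lost without M0 replicate 1 (adjusted p = 0.115), M0 replicate 3 (0.0684) or CaP replicate 3 (0.175), although the log2 fold change stayed between -2.49 and -1.88 over all 6 omissions. Ccr2 also fell in M1 cells, 1.93-fold (-0.95, SE 0.28, 95% interval -1.54 to -0.35, adjusted p = 0.0361). With the replicate number as a block the adjusted p was 0.0613. The call was also lost without M0 replicate 1 (0.113), M0 replicate 3 (0.0812), M1 replicate 2 (0.146) or M1 replicate 3 (0.114), and after thinning all libraries to the smallest one (0.145). In M2 cells the fitted level was 2.03-fold below M0 (-1.02, SE 0.27), with an adjusted p of 0.0541 that became 0.0446 without M0 replicate 2 and 0.0135 with DESeq2. The order of mean levels was M0 (15 ± 2.90 CPM), M1 (7.82 ± 1.40), M2 (7.32 ± 0.677), SiO2 (4.26 ± 0.541) and CaP (3.57 ± 1.60), and of the neighbours in it, M0 and M1 alone differed. CaP cells were also below M1 (log2 fold change -1.19, SE 0.29, adjusted p = 0.0148) and below M2 cells (-1.12, SE 0.29, adjusted p = 0.0404). Of the 31-base stretches of Ccr2 transcripts, 3.48% also occurred in other genes, so a part of the reads could be split between genes.

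Cx3cr1, the receptor for fractalkine, fell in IL-4-treated cells and was not called with microrods. M0 libraries held 21.1, 22.5 and 19.1 CPM, M1 libraries 8.93, 12.2 and 14.9 CPM, and M2 libraries 2.59, 2.23 and 3.07 CPM. No M2 library came near any other group. Cx3cr1 fell 7.62-fold in M2 cells (log2 fold change -2.93, SE 0.33, 95% interval -3.63 to -2.23, edgeR adjusted p = 0.000132). In M1 cells all 3 libraries were below all M0 libraries, but the difference (-0.80, SE 0.29) had an adjusted p of 0.0872, against 0.0493 with DESeq2 and 0.0498 with only the 6 libraries of these groups in the model. CaP libraries spread widely, with 14.0, 30.4 and 32.0 CPM, and SiO2 libraries held 16.4, 23.9 and 17.9 CPM. The microrod values lay on both sides of M0, with log2 fold changes of 0.28 (95% interval -0.39 to 0.94) for CaP and -0.12 (-0.79 to 0.56) for SiO2. In the order CaP (25.5 ± 9.94 CPM), M0 (20.9 ± 1.71), SiO2 (19.4 ± 3.96), M1 (12.0 ± 3.01) and M2 (2.63 ± 0.421), M1 and M2 were the only neighbours that differed (M2 over M1 -2.13, SE 0.33, adjusted p = 0.00048). The summed level of the macrophage marker list was 1680 to 2300 CPM in M2 against 2740 to 3700 CPM in M0. Of its 9 markers tested, 2 were called higher and Lyz2 alone lower, against 2.00% and 2.13% of all genes. Lyz2 had 1840 ± 375 CPM in M0 and 368 ± 61.2 CPM in M2. The median log2 fold change over the 9 was -0.04 against 0.07 over all genes. The part of these markers in the Cx3cr1 difference was not tested. An antisense gene, Gm33858, overlaps an exon of Cx3cr1, and these libraries do not tell the strands apart.

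Ccr7, the receptor for CCL19 and CCL21, was found in M1 cells and was at the floor elsewhere. The M1 libraries held 15, 35 and 28 counts, or 1.29, 2.39 and 2.72 CPM. All libraries of M0, M2 and SiO2 cells had 0 counts, and CaP cells had 2 counts in replicate 3 and none in the others. The M1 level was at least 10.3-fold higher than in M0, at least 9.97-fold higher than in M2 and at least 13.0-fold higher than in SiO2 cells, taking 3 counts per library as the limit that a count of 0 allows. Against the 2 counts of CaP cells the ratio was 111, with a 95% counting interval of 29.7 to 933. The gene passed the filter on low counts through its M1 libraries alone, so that a test against the other groups could hardly miss, and its levels are given as a description. Absence from the other groups was therefore measured only down to the floor, which averaged between 0.111 CPM in CaP and 0.214 CPM in M2 cells.

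Cxcr4, the receptor for CXCL12, was the scarcest receptor outside M1 cells apart from Ccr7, and it did not pass the filter on low counts in either model. M0 libraries had 13, 6 and 4 counts (0.342, 0.390 and 0.463 CPM), M1 libraries 0, 1 and 0 counts, and M2 libraries 1, 0 and 18 counts (0.0681, 0 and 0.257 CPM). CaP libraries had 8, 6 and 17 counts (0.164, 0.394 and 0.423 CPM) and SiO2 libraries 12, 3 and 11 (0.586, 0.227 and 0.435 CPM). The M1 libraries were below all M0, CaP and SiO2 libraries, whereas CaP and SiO2 overlapped M0. The summed counts, scaled for depth, gave a ratio of M0 to M1 of 13.6 with a 95% counting interval of 2.20 to 559. Without any filter on low counts, edgeR gave an adjusted p of 0.0411 for M1 against M0 over 52647 genes, and no other comparison of Cxcr4 passed. The values of M2 rest on replicate 3, the deepest library, and allow no order against the others.

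Ccrl2, an atypical receptor that binds chemerin and presents it to neighbouring cells without signalling itself, had its highest levels in M1 and microrod-treated cells. M0 libraries held 0.684, 1.56 and 1.73 CPM, M1 libraries 4.89, 9.49 and 7.57 CPM, and M2 libraries 1.16, 0.263 and 0.857 CPM. CaP libraries held 3.42, 4.00 and 4.63 CPM and SiO2 libraries 2.93, 2.64 and 2.18 CPM. All M1, CaP and SiO2 libraries were above all M0 libraries, and all CaP libraries were above all SiO2 libraries, while M2 and M0 overlapped. Ccrl2 rose 6.31-fold in M1 (log2 fold change 2.66, SE 0.38, 95% interval 1.84 to 3.48, edgeR adjusted p = 0.000372). With CaP microrods the fitted level was 3.44-fold that of M0 (1.78, SE 0.35, 95% interval 1.01 to 2.56), with an adjusted p of 0.0715 that did not pass. It passed with DESeq2 (0.00296), without a filter on low counts (0.0308), without M0 replicate 2 (0.0475) and without CaP replicate 1 (0.0369). Of the 6 omissions of 1 library, only these 2 passed, and the adjusted p went up to 0.308. In the other settings it went up to 0.124. SiO2 cells were at 2.21-fold the M0 level (1.14, SE 0.37, adjusted p = 0.407). In the order M1 (7.32 ± 2.31 CPM), CaP (4.02 ± 0.604), SiO2 (2.58 ± 0.381), M0 (1.33 ± 0.563) and M2 (0.759 ± 0.456), no neighbours differed by the test, but M1 was above SiO2 (SiO2 over M1 -1.52, SE 0.34, adjusted p = 0.00985). M2 was below CaP (CaP over M2 2.24, SE 0.38, adjusted p = 0.00274) and below SiO2 (SiO2 over M2 1.60, SE 0.40, adjusted p = 0.0423). The untreated level of Ccrl2 rests on 15 to 26 counts per library.

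**Figure D1:**
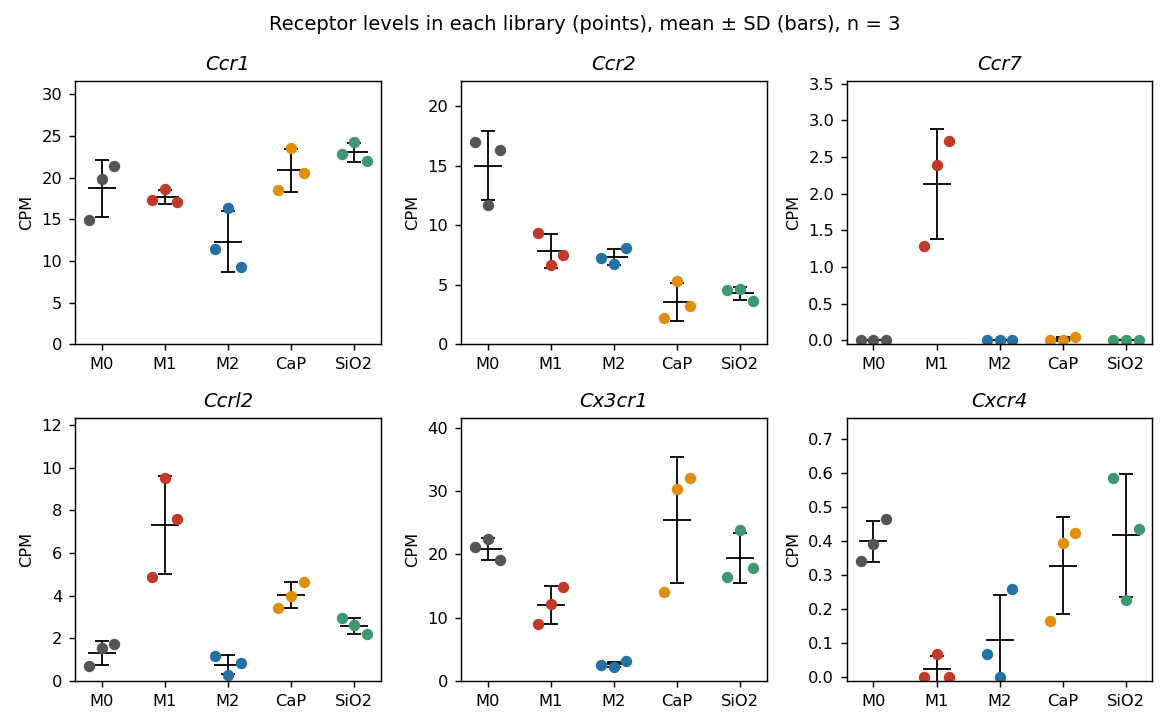
Level of each receptor in CPM (vertical axes, each with its own scale) in every library (points) of the M0, M1, M2, CaP and SiO2 groups, with the mean and SD of 3 libraries as bars. Ccr2 is highest in M0 (15 ± 2.90 CPM) and lowest in CaP cells (3.57 ± 1.60), Ccr7 is seen in M1, and Cx3cr1 is lowest in M2 (2.63 ± 0.421).

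The comparison of M1 with M0 asks how the receptors respond to a classical inflammatory stimulus. Ccrl2 rose, Ccr2 fell, and Ccr1 and Cx3cr1 did not pass the threshold, so that 2 of 4 receptors were called, leaving aside Ccr7, which entered the test through M1 alone. Over all 16654 genes tested, 14.0% were called in this comparison, 9.70% higher and 4.35% lower, and the libraries of M1 and M0 did not overlap for 32.2% of genes. DESeq2 called 16.8%, and Cx3cr1 in addition. In M2 against M0, Cx3cr1 fell, and Ccr1, Ccr2 and Ccrl2 were not called, while 4.13% of all genes were called by edgeR (2.00% higher and 2.13% lower) and 5.98% by DESeq2, and 15.2% had libraries that did not overlap. The summed markers of other cell types also differed, with 1.71 to 2.33 CPM in M1 and 1.71 to 2.16 CPM in M2 against 0.231 to 1.26 CPM in M0. Of these markers, Pecam1 held the most, at 1.20 ± 0.0763 CPM in M1, 1.40 ± 0.42 in M2 and 0.535 ± 0.365 in M0, and the T cell marker Cd3e, the neutrophil marker Ly6g and the epithelial marker Epcam were at the floor in all groups. Their part in the receptor differences was not tested.

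The comparisons of microrods with M0 ask how the receptors respond to the particles alone. With CaP microrods 1 of 4 receptors tested was called, Ccr2, against 0.421% of all 16621 genes, and 0.132% were called lower. With DESeq2, Ccrl2 was called too, and 4.15% of all genes. With SiO2 microrods edgeR called 0 of the 4 receptors and 0.0602% of all genes, Ccr2, Ccrl2 and no other receptor having an unadjusted p under 0.05 (0.00021 and 0.0114), as had 9.28% of all genes. DESeq2 called Ccr2 alone, and 0.778% of all genes. For 17.4% of genes in the CaP comparison and 18.0% in the SiO2 comparison, the libraries of the groups did not overlap, so that a clean separation of 3 libraries from 3 was common among all genes.

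CaP and SiO2 microrods were compared at the same time and at a dose equal by mass, a single pair of particles that differ in the material of the framework. The materials differ in density, so equal mass does not mean equal numbers of rods per cell, and the effect of number and that of material cannot be told apart. None of the 4 receptors tested differed between them by edgeR (all adjusted p = 1), with 0.0241% of all genes called, and DESeq2 called none either, against 0.0964% of all genes. The log2 fold change of CaP over SiO2 was -0.15 for Ccr1 (95% interval -0.56 to 0.26), -0.32 for Ccr2 (-1.05 to 0.42), 0.64 for Ccrl2 (-0.04 to 1.32) and 0.39 for Cx3cr1 (-0.27 to 1.06). The unadjusted p was 0.0612 for Ccrl2 and higher for the others, with 1.87% of all genes under 0.05. Ccrl2 was also the receptor whose CaP and SiO2 libraries did not overlap, which held for 8.10% of all genes. The absence of a call does not show that the particles act alike. Over all 10 pairs of groups in the model of 15 libraries, Ccr2, Ccrl2 and Cx3cr1 were called in 5 each and Ccr1 in 2, or 17 calls, to which the 4 pairs of M1 with another group add the calls of Ccr7 that its entry through M1 brings about, or 21 in all. In the pairs beyond M1 and M2 against M0, that model called 0.648% of all genes for CaP and 0.264% for SiO2 against M0, 16.1% for M2, 12.6% for CaP and 10.4% for SiO2 against M1, 4.43% for CaP and 3.65% for SiO2 against M2, and 0.0180% between the microrods.

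**Figure D2:**
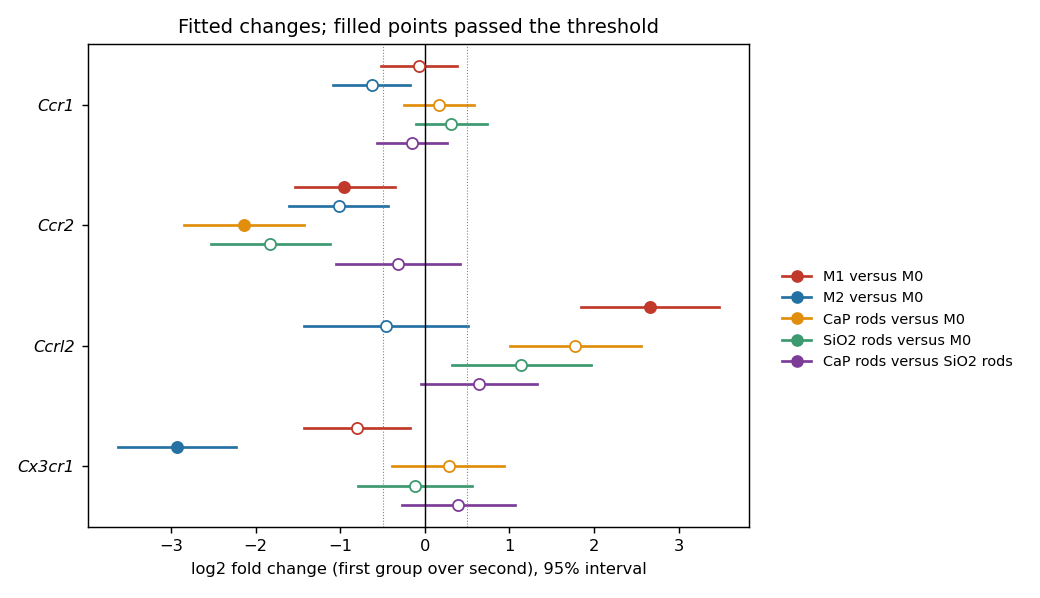
Fitted log2 fold change (horizontal axis) with its 95% interval for the 4 receptors tested in all 5 comparisons, as points and lines coloured by comparison, filled where the threshold was passed, with dotted lines at 0.5 in either direction. Filled points are Ccr2 in M1 (-0.95) and CaP (-2.14), Ccrl2 in M1 (2.66) and Cx3cr1 in M2 (-2.93).

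Receptors can be set beside each other only per transcript length. Here the length is that of the longest coding transcript in GENCODE, between 1805 bases for Cxcr4 and 5728 bases for Ccr2. On this scale of CPM per kb, Ccr1 was the highest receptor in every group, at 6.60 ± 1.20 in M0 and 8.13 ± 0.415 in SiO2 cells. Cx3cr1 came next in M0, at 4.65 ± 0.38, followed by Ccr2 at 2.62 ± 0.506, Ccrl2 at 0.539 ± 0.229 and Cxcr4 at 0.221 ± 0.0337. This order differed between the groups. Ccrl2 was below Ccr2 in all 3 M0 and all 3 M2 libraries, and above it in all 3 libraries each of M1, CaP and SiO2 cells. In CaP cells the levels were 1.63 ± 0.246 for Ccrl2 and 0.624 ± 0.279 for Ccr2, and in SiO2 cells 1.05 ± 0.155 and 0.744 ± 0.0945. Ccr2 was above Cx3cr1 in the 3 M2 libraries and in no library of another group. In M1 cells Ccr7 reached 1.08 ± 0.379, close to the 1.36 ± 0.244 of Ccr2. Transcripts used in these cells may be shorter than the longest one, and such levels shift with the length taken.

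**Figure D3:**
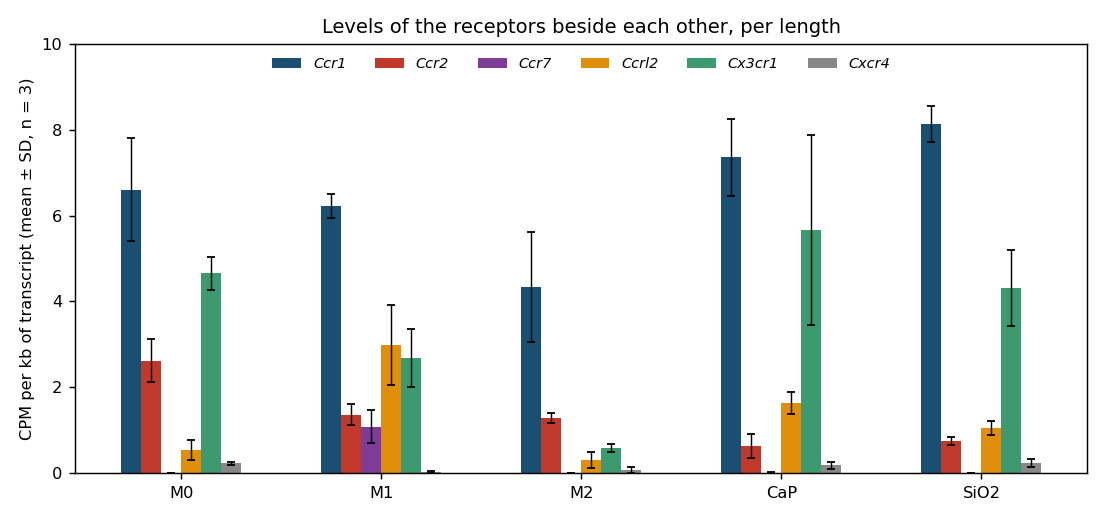
Mean level of each receptor in CPM per kb of the longest coding transcript (bars from 0, with the SD of 3 libraries) in the 5 groups. Ccr1 is the tallest bar in every group, and Ccrl2 stands above Ccr2 in M1, CaP and SiO2 but not in M0 or M2.

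The ligands of these receptors were followed in the same cells. Of 15 listed, 9 passed the filter in the model of all libraries, 1 of them, Ccl12, through its M1 libraries alone. Of the 8 others, 5 rose in M1 and none fell, namely Ccl2, Ccl3, Ccl4, Ccl5 and Ccl7, against 9.70% of all genes called higher, with a median log2 fold change over the 8 of 2.96 against -0.01 over all genes. Ccl5, a ligand of CCR1, went from 22.0, 27.1 and 16.5 CPM in M0 to 812, 980 and 1050 CPM in M1 (log2 fold change 5.43, SE 0.30, edgeR adjusted p = 4.63e-08). Ccl2, the main ligand of CCR2, had 200 ± 26.9 CPM in M0 and 1570 ± 113 CPM in M1 (2.97, SE 0.22, adjusted p = 5.98e-07). In the same M1 libraries Ccr2 was lower than in M0. Ccl12 had 7 to 23 counts in M1 libraries and 0 in M0. Cxcl12 and the chemerin gene Rarres2 had at most 2 counts in the summed libraries of any group, and Ccl8 had none.

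In M2 cells the ligands split, with 1 of these 8 higher and 2 lower, against 2.00% and 2.13% of all genes. Ccl7, a ligand of CCR1 and CCR2, rose from 7.28, 6.49 and 10.5 CPM in M0 to 30.3, 94.6 and 30.3 CPM (log2 fold change 2.68, SE 0.44, adjusted p = 0.00301). Without M2 replicate 2, the highest library, its log2 fold change was 1.94 (adjusted p = 0.002). Ccl3 fell from 102, 97.2 and 114 CPM to 37.5, 57.9 and 34.3 CPM (-1.28, SE 0.19, adjusted p = 0.00126), and Ccl9 fell by 1.04 on the log2 scale (SE 0.14, adjusted p = 0.000646). The calls of Ccl3, Ccl7 and Ccl9 were lost when only the M0 and M2 libraries were in the model (adjusted p = 0.118, 0.108 and 0.103). Ccl12 had 1, 2 and 17 counts against 0 in M0, most of them in M2 replicate 3, the deepest library.

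With CaP microrods, 3 of 8 ligands tested rose and none fell, against 0.289% of all genes called higher, with a median log2 fold change over the 8 of 0.61 against 0.06 over all genes. Ccl3 reached 329, 301 and 268 CPM (log2 fold change 1.52, SE 0.14, adjusted p = 0.00278). Ccl4, an inflammatory CC chemokine, went from 112, 201 and 150 CPM in M0 to 626, 530 and 506 CPM (1.85, SE 0.21, adjusted p = 0.0072). Ccl7 reached 37.3, 33.7 and 21.7 CPM (1.96, SE 0.26, adjusted p = 0.0163), a call lost without M0 replicate 1 (0.114) or CaP replicate 2 (0.0624) and with all 15 libraries in the model (0.0576). Of these 3, Ccl7 alone is named above as a ligand of CCR2, whose transcript was lower in these cells. Ccl2, the main ligand of CCR2, did not pass with edgeR (0.75, SE 0.19, adjusted p = 0.118). DESeq2 called 4 of the 8 ligands, with Ccl2 in addition, against 4.15% of all genes. With SiO2 microrods edgeR and DESeq2 called 0 of 8 ligands, of which 4 had an unadjusted p under 0.05 in edgeR, as had 9.28% of all genes. These cells held Ccl3 at 143, 140 and 153 CPM, Ccl4 at 273, 297 and 272 CPM and Ccl7 at 12.5, 14.3 and 12.4 CPM. Between CaP and SiO2 edgeR called 0 ligands, with 4 at an unadjusted p under 0.05 against 1.87% of all genes. DESeq2 called 3 there, Ccl3, Ccl4 and Ccl7, against 0.0964% of all genes.

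Of 19 other chemokine, atypical and chemerin receptors, 4 passed the filter, and 1 of them was called, lower in M1 and in M2, where 4.35% and 2.13% of all genes were. Cxcr3, the receptor for the interferon-induced chemokines CXCL9, CXCL10 and CXCL11, fell in both polarized groups, from 7.28, 11.6 and 11.3 CPM in M0 to 1.72, 2.25 and 1.84 CPM in M1 and 1.57, 1.45 and 2.17 CPM in M2. The M0 libraries lay above all M1 and M2 libraries, and M1 and M2 overlapped. The fall was 5.07-fold in M1 (log2 fold change -2.34, SE 0.26, adjusted p = 3.61e-05) and 5.34-fold in M2 (-2.42, SE 0.25, adjusted p = 6.08e-05), and both values share the M0 libraries. With microrods Cxcr3 had 7.95 ± 0.903 CPM in CaP and 8.78 ± 0.881 in SiO2 cells. Cmklr1 and Cmklr2, the signalling receptors for chemerin, had 0 or 1 count in the summed libraries of each group.

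Of 22 genes listed for receptor coupling and chemotaxis, 4 rose in M1 and none fell, or 4 of 22 against 9.70% of all genes called higher, with a median log2 fold change of 0.08 against -0.01 over all genes. Among them were Rac2, a Rac GTPase of blood cells (1.79, SE 0.28, adjusted p = 0.000798), Pik3r5, a regulatory subunit of phosphoinositide 3-kinase γ (1.00, SE 0.19, adjusted p = 0.00287) and the G protein subunit Gng2 (0.71, SE 0.19, adjusted p = 0.0233). The Gng2 call was lost without M0 replicate 1 (0.108), M0 replicate 3 (0.0802), M1 replicate 2 (0.104) or M1 replicate 3 (0.0937), without a filter on low counts (0.0907) and with only the M0 and M1 libraries in the model (0.0961). In the other 4 comparisons edgeR called 0 of the 22, with 4 at an unadjusted p under 0.05 in M2 and 1 in CaP, where 17.2% and 17.9% of all genes were, and 0 in SiO2 and between the microrods. DESeq2 called 1 of them in M2, Lyn, and 0 in the others.

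Of 14 genes tested that end receptor signalling, 2 rose and 3 fell in M1, against 9.70% of all genes called higher and 4.35% lower. Grk5, a receptor kinase, rose (log2 fold change 2.11, SE 0.33, adjusted p = 0.000678), as did Itch, a ubiquitin ligase that sends CXCR4 to degradation (1.29, SE 0.34, adjusted p = 0.0202). The Itch call was lost without M0 replicate 2 (0.0778), M0 replicate 3 (0.0639), M1 replicate 1 (0.0576) or M1 replicate 3 (0.0513). Rgs2 (-4.05, SE 0.48, adjusted p = 6.16e-05), Rgs1 (-1.35, SE 0.20, adjusted p = 0.000433) and the arrestin gene Arrb1 (-0.87, SE 0.19, adjusted p = 0.00773) fell. RGS proteins shorten receptor signalling by speeding up GTP hydrolysis in the G protein.

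Rgs1 moved in opposite directions with the classical stimulus and with microrods. It had 20.5, 30.0 and 25.2 CPM in M0, 9.61, 9.97 and 10.1 CPM in M1, 110, 97.8 and 91.0 CPM in CaP and 63.5, 69.7 and 65.1 CPM in SiO2 cells. No group overlapped another of these. Rgs1 rose 3.95-fold with CaP (log2 fold change 1.98, SE 0.17, edgeR adjusted p = 0.00228) and 2.62-fold with SiO2 (1.39, SE 0.17, adjusted p = 0.0325). The SiO2 call was lost without any of the 6 libraries, at an adjusted p of 0.122, 0.0638 and 0.151 without M0 replicates 1, 2 and 3 and of 0.175, 0.152 and 0.251 without SiO2 replicates 1, 2 and 3. Rgs1 was the 1 gene of the 14 that edgeR called with each microrod, against 0.289% of all genes called higher with CaP and 0.0602% called with SiO2. Rgs16, another RGS gene, had 2.68, 3.18 and 4.74 CPM in M0 and 8.25, 13.7 and 13.3 CPM in CaP cells (1.79, SE 0.31, adjusted p = 0.0503), which DESeq2 called. In M2 edgeR and DESeq2 called 0 of the 14, against 4.13% and 5.98% of all genes. In edgeR 3 of the 14 had an unadjusted p under 0.05, as had 17.2% of all genes. Without M2 replicate 2 edgeR called 2 of the 14, and the share over all genes in that fit is not given here.

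**Figure D4:**
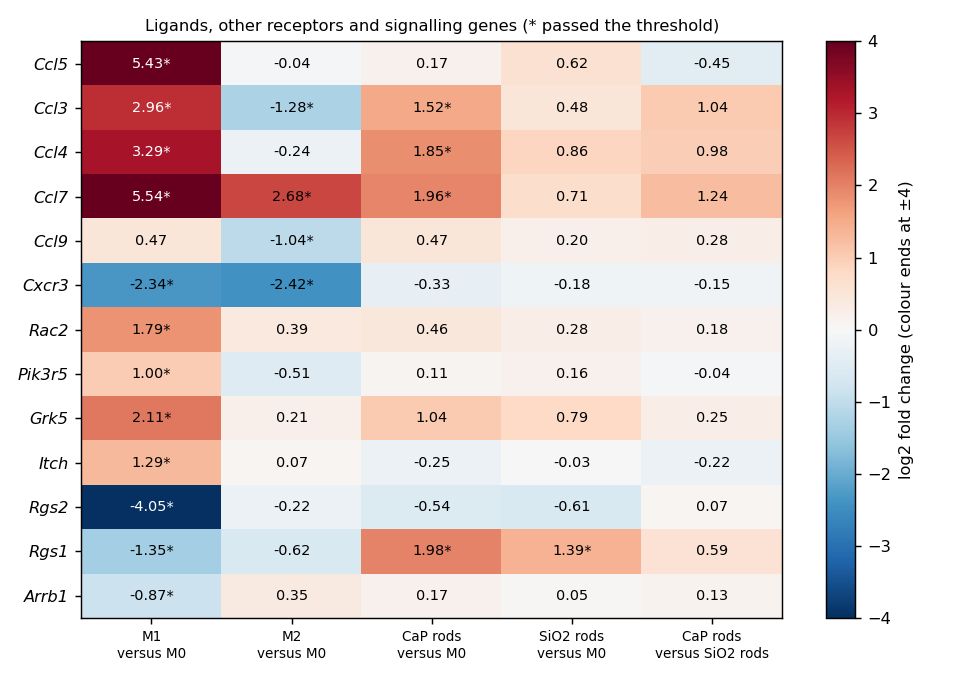
Log2 fold change (numbers and colour, which ends at 4 in either direction) of ligands, Cxcr3 and signalling genes in the 5 comparisons, with an asterisk where the threshold was passed; Ccl12, which had 0 counts in M0, is left out. Rgs1 is at -1.35 in M1, 1.98 in CaP and 1.39 in SiO2, and Cxcr3 at -2.34 in M1 and -2.42 in M2.

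For each receptor that passed the filter, the 3 genes with the most similar pattern were searched among 10723 genes by the Pearson correlation of log2 CPM over the 15 libraries. These libraries fall into 5 treatment groups, which the correlations share, and the values are descriptions. Nearest to Ccr1 were Tnfsf9 (r = 0.936), Dtx4 (0.931) and Gla (0.911). Nearest to Ccr2 was Tgfbi (0.961), which encodes a secreted matrix protein and had 18.0 CPM in M0, 10.4 in M1, 11.2 in M2, 5.16 in CaP and 6.06 in SiO2 cells, followed by Fnbp4 (0.882) and Herc1 (0.876). Nearest to Ccr7 were Urah (0.992), Wfdc21 (0.99) and 1700003M07Rik (0.989), all with at most 0.0415 CPM on average outside M1. Ccrl2 was most like Tmem120a (0.966), Rhoc (0.965) and Tnf (0.965), the last with 26.7 CPM in M0, 113 in M1, 11.2 in M2, 52.1 in CaP and 35.9 in SiO2 cells. Nearest to Cx3cr1 were Il17ra (0.968), Cxcl14 (0.954) and Syne1 (0.95). Among the receptors themselves the closest pair was Ccr1 and Cx3cr1 (0.77), and Ccr2 and Ccrl2 had a correlation of -0.35 over the same 15 libraries.

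The size of the microrod differences of Ccr2 and Ccrl2 was less variable across the fits than their adjusted p. The log2 fold change of Ccr2 with SiO2 lay between -1.98 and -1.72 over the omissions of 1 library, and that of Ccrl2 with CaP between 1.28 and 2.05. Ccrl2 with SiO2 ranged from 0.64 without M0 replicate 1 to 1.41 without M0 replicate 2.

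**Figure D5:**
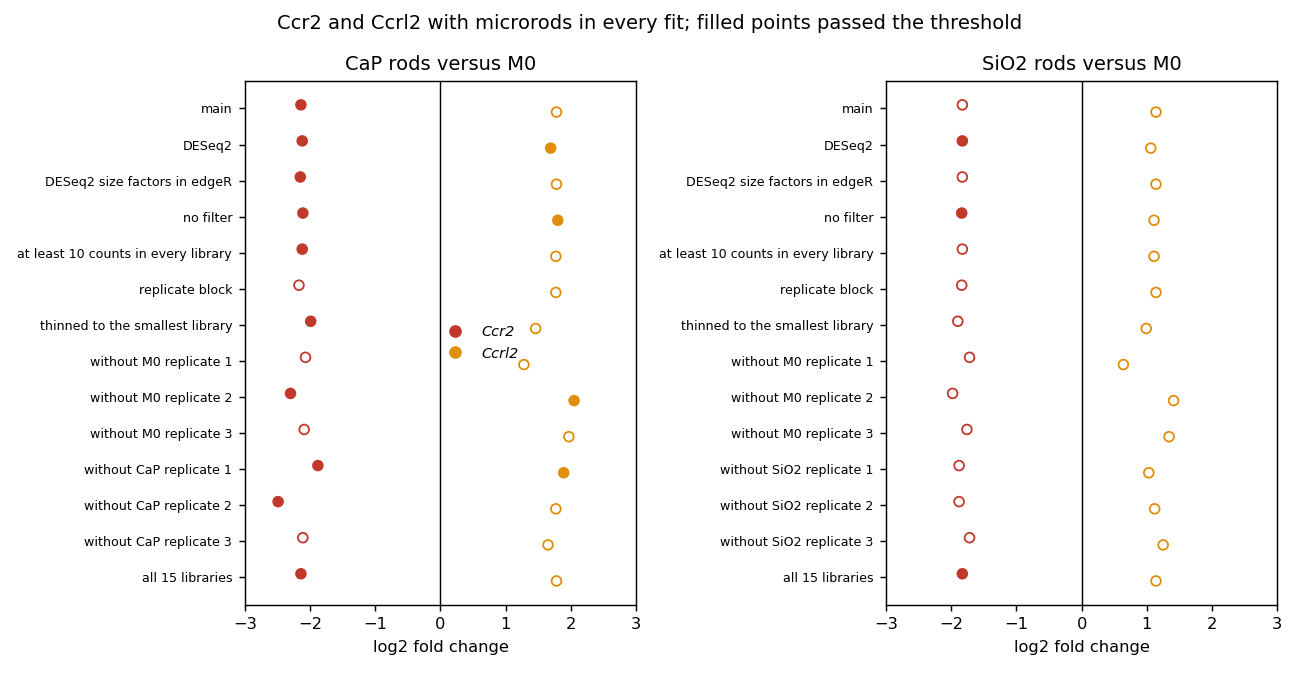
Log2 fold change (horizontal axis) of Ccr2 and Ccrl2 with CaP (left) and SiO2 microrods (right) against M0 in every fit (rows), filled where the threshold was passed. Ccr2 stays between -2.49 and -1.72 and Ccrl2 between 0.64 and 2.05, while the filled points come and go with the library left out or the tool.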

How the data were processed

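The authors made Smart-seq2 libraries without molecular identifiers from poly-A RNA, quantified paired-end reads with STAR and Salmon in the nf-core/rnaseq pipeline, and deposited 1 table of counts per Ensembl gene. Their processing notes name GRCm39. Salmon estimates counts, so the whole numbers may be rounded. Symbols (51487 of 78317 identifiers) and transcript lengths came from GENCODE, promoters from RefSeq.

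Counts were filtered with filterByExpr, scaled with TMM and tested with edgeR 4.0.16 in R 4.3.3, with Benjamini-Hochberg adjustment over all genes. M1 and M2 were compared with M0 in a model of 15 libraries, and the microrods in one of 9. DESeq2 1.42.0 was an alternative. Tests were tried on simulated data.

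Total counts of 8459643 to 68750050 limit low genes. Intervals of fold changes come from edgeR's fit, and those of count ratios cover counting error only. An exact permutation test of 3 against 3 libraries cannot give a p below 0.1. Same-numbered M0 and M1 libraries deviated together (r = 0.29, 0.27 and 0.21), as did those of M2 and SiO2 (0.13, 0.51 and 0.42). This was not so for the other pairs of groups, and no label gives the numbers a meaning. P-values measure the spread between wells of 1 line.

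Receptors, lists and tests were chosen with earlier results of these data known. Named were the receptors, up to 3 called genes per list, direction and comparison, and the 3 most similar patterns. Gng2, Lyn, Rgs16, markers, Ccl2 in CaP, and Ccl2, Ccl7 and Ccl12 in M1 were named beyond that rule after their values were seen. Some genes of the lists are counted but not reported here by name.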

Additional observations from a re-analysis of the deposited data

How the results depend on the processing

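The results of the receptors and the named list genes kept their direction under the alternatives run for each (for Cxcr4, only the fit without a filter), apart from Ccr1, whose log2 fold change lay between -0.24 and 0.03 in M1 (positive without M0 replicate 3) and between -0.01 and 0.26 in CaP (negative without M0 replicate 1). The number of receptors called in M1, 3 with Ccr7, was 4 with DESeq2, without a filter and with only the M0 and M1 libraries in the model, 1 with at least 10 counts in every library, a filter that removes Ccr7 and Ccrl2, and 2 to 3 without single libraries. In M2, 1 became 2 with DESeq2 and with that filter (Ccr2 in both), and was 1 to 2 without single libraries. In CaP, 1 became 2 with DESeq2 and without a filter (Ccrl2), and was 0 to 2 without single libraries. In SiO2, 0 became 1 with DESeq2, without a filter and with all 15 libraries in the model (Ccr2 in each). Of group pairs, 21 were called, 25 with DESeq2, 13 with the filter of 10 counts, and 15 to 23 without single libraries. Between CaP and SiO2 it was 0 in all fits. DESeq2's size factors moved the median log2 fold change by at most 0.02 in size.

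Over the 5 groups the deviations of same-numbered libraries correlated between -0.7 and 0.6 in 30 pairs of libraries, and 14 exceeded 0.1. All 3 pairs did so between M0 and M1 and between M2 and SiO2 (0.13, 0.51 and 0.42), but not between the other groups compared. With the number as a replicate block, 0 receptors were called in CaP (Ccr2 adjusted p = 0.0748) and 2 in M1 (Ccr2 0.0613), 17 group pairs were called, and Ccl7 in CaP (0.0567) and Rgs1 in SiO2 (0.101) were not. Depth limits Ccr7, Cxcr4 and Ccrl2 most, at 0 to 35 counts in M0 and M1 libraries for the first and second.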
